A study of Drosophila melanogaster with 8 samples.

Results

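The centromere-side end of chromosome arm 2L of Drosophila melanogaster was examined for enrichment of heterochromatin protein 1a (HP1a) in embryos. It consists of the last 2 Mb of 2L, from 21011545 to 23011544 (FlyBase release 5), and of 2LHet, a scaffold of 368.872 kb that holds heterochromatic sequence assigned to 2L but not joined to the arm. A region belonged to it if it lay on 2LHet or if its midpoint lay in the last 2 Mb of 2L. By this rule 170 of the 5697 regions of the combined set were members, 152 on 2L and 18 on 2LHet. In the lists of replicates 1 to 4 there were 162 members of 5406 regions, 162 of 5127, 134 of 4903 and 128 of 4260. Of these, 123, 131, 100 and 93 lay on 2L and 39, 31, 34 and 35 on 2LHet.

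HP1a binds histone H3 that is methylated at a lysine of its tail, and binds further HP1a molecules, so that it can coat long stretches of chromatin. In Drosophila it is known for its concentration in the repeat-rich chromatin around centromeres, which stains densely through the cell cycle and is called heterochromatin. Chromosome arms pass from gene-rich euchromatin into this heterochromatin towards their centromere. The assembled end of 2L and the 2LHet scaffold both come from that side of the arm.

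The 4 ChIP samples were made with the antibody wa191 against HP1a from whole embryos aged 14 to 16 h (Oregon-R, a wild-type strain), fixed in 1.8% formaldehyde. The 4 input samples, 1 for each ChIP sample, came from the same strain and age. No treatment or genotype was compared, so the design asks at which places HP1a exceeded its input and how alike the replicates were. Whole embryos mix many cell types, and separate embryo collections are not stated for the replicates, so the spread between them may be technical. The experiment numbers in the labels run in 2 pairs, with 1914 and 1916 given to replicates 1 and 2, then 2026 and 2027 to the other pair. Read depth is unknown for every list. No sequence or gene annotation of release 5 was used here, so regions are given by position and genes at them were not analysed.

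HP1a-enriched regions filled most of the innermost 894 kb of 2L and most of 2LHet, and little of the 2L sequence just outside. The covered share, the percentage of bases inside enriched regions, was 31.1%, 39.0%, 34.0% and 35.6% over the last 2 Mb of 2L in replicates 1 to 4. On 2LHet it was 62.8%, 70.7%, 57.4% and 57.2%. For the window and the scaffold together it was 36.1%, 43.9%, 37.7% and 39.0%. The rest of 2L was covered over 5.25%, 5.99%, 4.28% and 3.49%, so the ranges did not overlap with those of the centromere-side sequence. Together the window and 2LHet made up 4.28% ± 0.294 of all bases covered in a list (SD, n = 4), of which the 2L window held 3.23% ± 0.295 and 2LHet 1.05% ± 0.0335.

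The covered share of the window plus 2LHet was 8.54 ± 1.93 fold that of the rest of 2L (SD, n = 4), with values of 6.86, 7.34, 8.80 and 11.2 in replicates 1 to 4. For the 2L window alone the ratios were 5.92, 6.51, 7.95 and 10.2. Each was above 1 in 4 of 4 replicates. Signs of the 4 log2 ratios were flipped in all 16 ways for a two-sided exact permutation test, which returned p = 0.13 for both ratios, with a Benjamini-Hochberg adjusted p = 0.156 across the 10 comparisons tested. A p of 0.13, from 2 of the 16 ways, is the smallest possible here, so no comparison could pass a threshold of 0.05. Both ratios were higher in replicates 3 and 4 than in replicates 1 and 2.

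**Figure D1:**
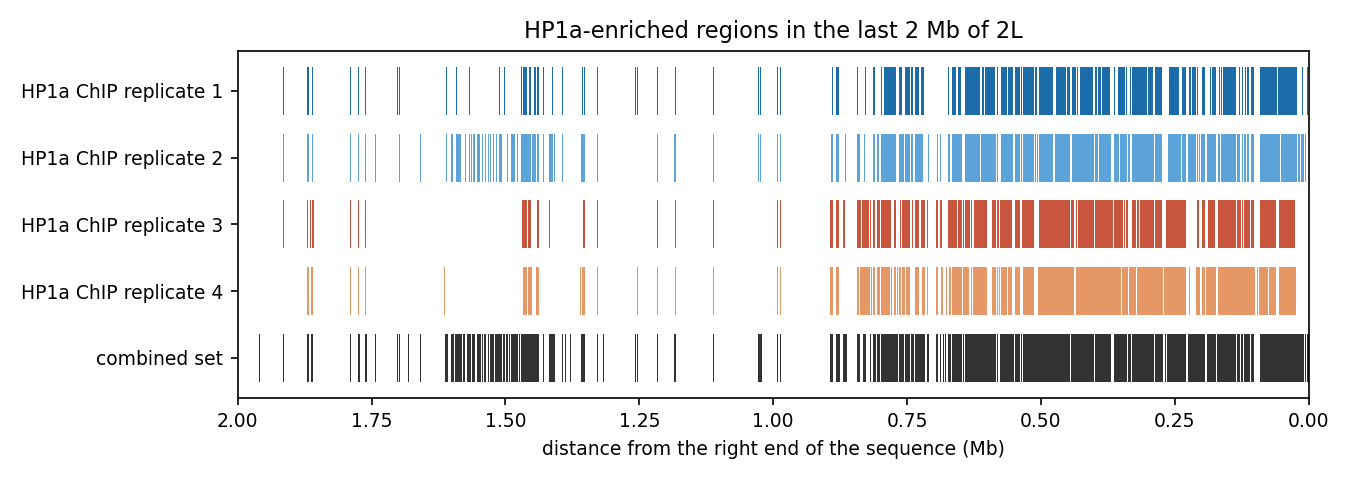
Enriched regions in the last 2 Mb of 2L, drawn as blocks to scale against distance from the right end of the sequence in Mb, for the 4 HP1a ChIP replicate lists and the combined set. Regions lie densely from about 0.9 Mb to the end in all 5 lists. A group near 1.5 Mb (21408938 to 21542097) is dense in the combined set and in replicate 2, thin in replicate 1 and absent from replicates 3 and 4.

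Within the last 2 Mb of 2L, HP1a enrichment was concentrated on the centromere side. The inner 1 Mb was covered over 55.2%, 64.5%, 63.2% and 66.3% in replicates 1 to 4, and the outer 1 Mb over 7.06%, 13.4%, 4.93% and 4.92%. The groups of values did not overlap, and replicate 2 was the highest in the outer 1 Mb. The inner 1 Mb held 89.3% ± 4.81 of the covered bases of the window (SD, n = 4). The ratio of the inner to the outer share was 7.82, 4.80, 12.8 and 13.5, a mean of 9.73 ± 4.14 fold (SD, n = 4; exceeding 1 in all 4, exact permutation p = 0.13, adjusted p = 0.156). The outer 1 Mb was covered at 1.34, 2.24, 1.15 and 1.41 times the rest of 2L. Without the 2 bins from 21411545 to 21611544, described below and left out after their values were seen, the outer share was 4.34% ± 0.83. That is 0.926 ± 0.129 times the rest of 2L. These bins had the highest mean shares of the outer 1 Mb, 11.7% and 29.4%, and hold 3 regions found in all 4 replicates. A lower share without them thus follows from the choice.

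Divided into 20 bins of 100 kb, the window showed where the covered share changed. From the outer edge to 21411544 each of the first 4 bins averaged between 1.33% and 7.00%. The 3 lowest bins of the window were those that begin at 21011545 (1.33% ± 0.899), at 21911545 (1.71% ± 2.02) and at 21311545 (2.89% ± 2.64; SD, n = 4). The bin from 22011545 to 22111544 was still covered over only 4.72%, 4.77%, 4.65% and 4.66% in replicates 1 to 4. The next, from 22111545 to 22211544, was covered over 16.1%, 23.6%, 41.7% and 43.1%. In this bin replicates 3 and 4 had the higher shares, and the bin after it did not separate the pairs, at 52.5%, 64.9%, 60.0% and 57.4%. Replicates 3 and 4 were again both higher in the bins from 22311545, 22511545 and 22811545. They were both lower in the bins from 22411545 and 22911545. The 3 highest bins began at 22511545 (90.0% ± 6.58), at 22611545 (83.6% ± 5.37) and at 22811545 (78.0% ± 13.7; SD, n = 4).

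**Figure D2:**
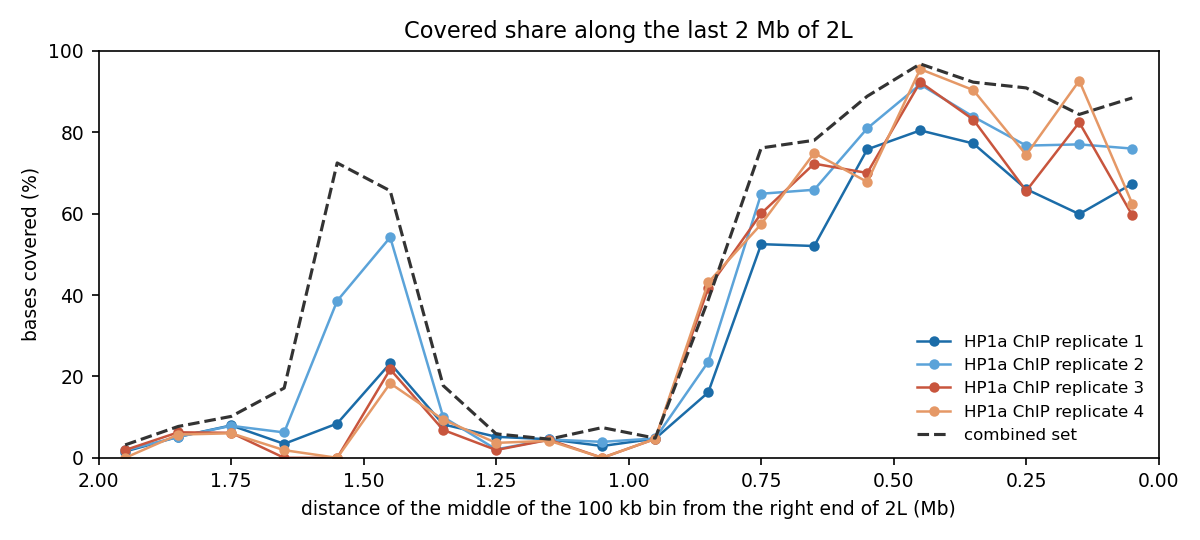
Percentage of bases covered in each of the 20 bins of 100 kb of the 2L window, plotted against the distance of the bin from the right end of 2L in Mb, as a solid line with points for each of the 4 HP1a ChIP replicates and a dashed line for the combined set. All 4 replicates climb from under 5% in the bin that ends 900 kb from the right end to over 50% in the bin that begins 800 kb from it.

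The dense part began behind the longest stretch of the window that held no region in any of the 5 lists, 91.573 kb from 22025746 to 22117318. From 22117319 to the right end, 894 kb, the covered share was 61.2%, 71.6%, 70.1% and 73.6% in replicates 1 to 4 and averaged 69.1% ± 5.49 (SD, n = 4). There the longest stretch without a region in any list was 18288 bp. The combined set had 71 regions in the dense part, whose bounds were chosen after the values were seen, and 40 of them were found in all 4 replicates, where 47.1% of all combined-set regions were. At the very end of the arm the replicates differed: the last region stopped 1.363 kb and 5.779 kb from the right end in replicates 1 and 2, and 25.383 kb and 24.247 kb from it in replicates 3 and 4.

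Regions of the dense part were wide. The median region width in the inner 1 Mb was 4409 ± 688 bp and in the outer 1 Mb 1980 ± 170 bp (SD, n = 4). The median gap between neighbouring regions was 1809 ± 331 bp in the inner 1 Mb and 15464 ± 8231 bp in the outer 1 Mb. Regions over 10 kb wide made up 59.9% ± 9.06 of the summed region width of the inner 1 Mb, and 1.92% ± 3.85 of that of the outer 1 Mb, where replicate 2 had 1 such region and the other replicates 0. Over the whole window the median width was 2400, 2259, 3917 and 3928 bp in replicates 1 to 4, against 2070, 2094, 2037 and 2022 bp on the rest of 2L. All 4 values were higher in the window, with ratios of 1.16, 1.08, 1.92 and 1.94 (exact permutation p = 0.13, adjusted p = 0.156).

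The 10 widest combined-set regions of the window all lay in the inner 1 Mb and were all found in all 4 replicates. They were between 28469 and 43075 bp wide and together held 34.3% of the bases that the combined set covered in the window. The widest, from 22959964 to 23003038, lies next to the end of the assembled arm. Replicates 1 to 4 covered 71.0%, 86.4%, 60.8% and 63.2% of it, with 4, 5, 1 and 1 regions. The second widest, 35823 bp from 22923186 to 22959008, was covered over 89.5% ± 7.97 (SD, n = 4). The third widest, 32854 bp from 22785601 to 22818454, was the least completely shared of the 10: replicates 1 and 2 covered 73.1% and 80.0% of it, and replicates 3 and 4 covered 29.5% and 45.2%.

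The other wide regions were covered nearly throughout. The regions from 22578808 to 22610697, from 22843829 to 22875580 and from 22369048 to 22400664 were 31890, 31752 and 31617 bp wide and were covered over 94.4% ± 8.11, 96.0% ± 4.96 and 87.7% ± 3.45 (SD, n = 4). Those from 22535429 to 22566043 and from 22611613 to 22641602 had widths of 30615 and 29990 bp and were covered over 93.1% ± 8.12 and 95.9% ± 4.70. Those from 22680565 to 22710553 and from 22506450 to 22534918, 29989 and 28469 bp wide, were covered over 96.6% ± 3.13 and 95.6% ± 4.03. In single replicates each of the 10 corresponded to between 1 and 7 regions. Replicate 4 joined 2 of them in a single region of 66242 bp from 22577171 to 22643412, whereas the widest region of the window was 27528, 31579 and 30838 bp in replicates 1 to 3.

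The highest scores of the window in the combined set did not belong to its wide regions. The score is the authors' own value for each region, on a scale that is not stated, and is used here only to rank regions within a list. Of the 10 highest-scoring combined-set regions found in all 4 replicates, 5 were under 4 kb wide and these took the top 5 ranks. The highest, 3.07, was that of a region of 2416 bp from 22017891 to 22020306. Its overlapping region ranked above 99.7%, 99.8%, 93.1% and 90.1% of the regions of lists 1 to 4. It had the highest score of the window in replicates 1 and 2, at 3.13 and 3.08, but not in replicates 3 and 4, where a region of 22309 bp from 22748126 to 22770434 and one of 2102 bp from 22231985 to 22234086 were highest at 2.43 and 2.68.

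Among the other narrow, high-scoring regions, that spanning 22428634 to 22431982 is 3349 bp wide with a combined score of 2.20, and that spanning 21827157 to 21829572 is 2416 bp wide with 2.19. The remaining pair span 21898388 to 21900561 and 22023326 to 22025745, with widths of 2174 and 2420 bp and scores of 2.16 and 2.04. The replicates covered each of them over at least 89.2%. Their rank depended on the replicate. The region from 21827157 ranked above 94.99% and 95.7% of the regions of lists 1 and 2, but above 65.5% and 40.1% of those of lists 3 and 4. For the region from 21898388 these percentiles were 96.2, 93.2, 72.3 and 27.7 in replicates 1 to 4, and for that from 22023326 they were 95.4, 89.1, 54.0 and 48.8. The region from 22428634, inside the dense part, stood at 94.0, 96.6, 72.7 and 91.4.

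The other 5 of the 10 highest scores belonged to regions over 8 kb wide. The widest region of the window, from 22959964, had a combined score of 1.93 and percentiles of 90.7, 94.5, 94.2 and 94.4 in replicates 1 to 4. A region of 25720 bp from 22748377 to 22774096 had a score of 1.91 and percentiles of 92.7, 92.4, 96.9 and 91.7. The remaining 3 span 22258017 to 22266334 (8318 bp, score 1.82), 22711766 to 22723059 (11294 bp, 1.81) and 22680565 to 22710553 (29989 bp, 1.78). In replicates 1 to 4 the first of these stood at percentiles of 90.8, 87.9, 95.9 and 96.1. The last stood at 75.5 in replicate 1 and between 89.9 and 90.8 in the others.

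**Figure D3:**
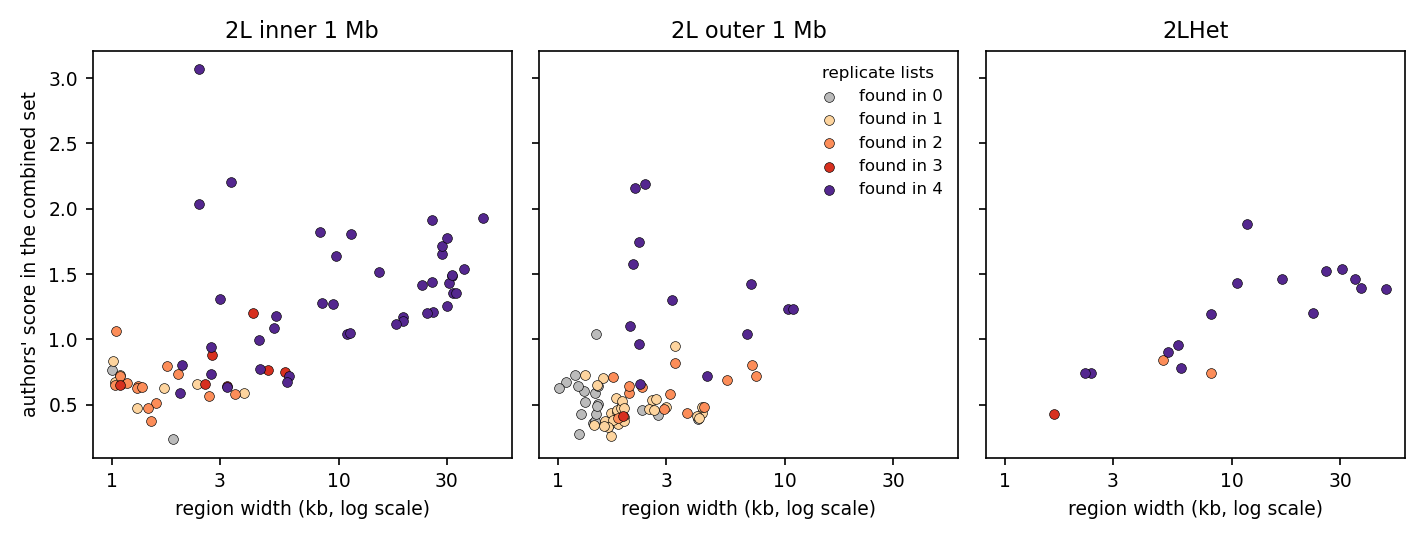
Width of each combined-set region in kb on a log scale against the authors' score, for the 73 regions of the inner 1 Mb of the 2L window, the 79 of its outer 1 Mb and the 18 of 2LHet, coloured by the number of replicate lists that overlap the region. Regions found in all 4 replicates are between 1996 and 47718 bp wide, with the highest scores, up to 3.07, among those under 4 kb, while those found in 0 or 1 lists are at most 4319 bp wide and score up to 1.04.

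Of the 5 narrow high-scoring regions, 4 lay in sparsely covered sequence. From 21694735 to 22117318, a stretch of 423 kb chosen after its values were seen, replicates 1 to 4 covered 4.11%, 3.62%, 2.61% and 2.96% of the bases. The combined set had 8 regions there, of which 5 were found in all 4 replicates, including 4 of the 5 highest-scoring of the window. These 5 were between 2080 and 2420 bp wide. The longest spaces next to them that held no region in any list were 68.806 kb from 21829582, 81.748 kb from 21900576 and the 91.573 kb that ends at the dense part. Few bases were thus covered. Over the whole combined set 47.1% of regions were found in all 4 replicates, and 8 regions are too few to set 5 of them apart from that share.

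The outer 1 Mb also held a stretch, likewise chosen after its values were seen, in which the lists differed widely. From 21408938 to 21542097, 133 kb, the combined set had 41 regions that covered 73.5% of the bases. Their scores were low, with a median of 0.434 and a range of 0.265 to 0.953. Replicate 2 had 28 regions there and covered 40.7%, replicate 1 had 6 and covered 7.34%, and replicates 3 and 4 had 0. Of the 41 regions, 22 were found in replicate 2 alone, 5 in replicates 1 and 2, and 13 in no replicate. No region was found in 3 or more. Over the whole combined set, 5.93% of regions were found in replicate 2 alone, 9.02% in replicates 1 and 2 only and 13.0% in no replicate.

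On the centromere side of this stretch, 3 wider regions were found in all 4 replicates. They lay from 21542724 to 21552989, from 21553236 to 21560309 and from 21563219 to 21574007, with scores of 1.23, 1.42 and 1.23. The bin from 21511545 to 21611544 that holds them was covered over 23.2%, 54.2%, 21.7% and 18.3% in replicates 1 to 4, and the bin before it, from 21411545, over 8.43%, 38.6%, 0% and 0%. Replicate 2 was far above the others in both bins. What sets this stretch apart in the lists was not tested, and the depth behind replicate 2 is unknown.

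On 2LHet the regions of the combined set were wide and closely packed. The 18 regions of the combined set covered 76.6% of the scaffold, and 15 of them were found in all 4 replicates. The 5 widest held 62.4% of the covered bases. The widest, 47718 bp from 284054 to 331771, was covered over 87.1% ± 8.92 (SD, n = 4), and its neighbour of 36987 bp, which runs from 331886 to the scaffold's right end at 368872, over 78.8% ± 17.6. The next, of 34935 bp, spans 180270 to 215204 and was covered over 89.2% ± 8.44. The region spanning 31917 to 62508 is 30592 bp wide and was covered over 84.9% ± 7.71, and that spanning 236130 to 262150 is 26021 bp wide and was covered over 94.6% ± 2.37. At the right end, replicates 1 and 2 covered 91.7% and 96.1% of the region, whereas replicates 3 and 4 covered 65.4% and 62.1% of it.

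The highest combined score of 2LHet, 1.88, belonged to a region of 11729 bp from 168397 to 180125, which stood at percentiles of 89.7, 90.0, 85.3 and 92.7 in replicates 1 to 4. It was followed by the regions from 31917 with 1.54, from 236130 with 1.53 and from 180270 with 1.46, all among the widest, and by 16655 bp from 150683 to 167337 with 1.46. No region of 2LHet was among the 100 highest-scoring of any list, and in the 2L window 1, 1, 0 and 1 regions were in replicates 1 to 4. The replicate lists held 4260 to 5406 regions, of which 31 to 39 lay on 2LHet. An even share of the 100 would thus place few or none there, and the count of 0 says little about 2LHet. The median member of 2LHet stood at percentiles of 55.1, 58.5, 74.4 and 75.1 in replicates 1 to 4. For the inner 1 Mb of 2L these medians were 46.6, 55.0, 57.8 and 60.8, and for the outer 1 Mb 21.8, 11.8, 26.7 and 36.4.

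**Figure D4:**
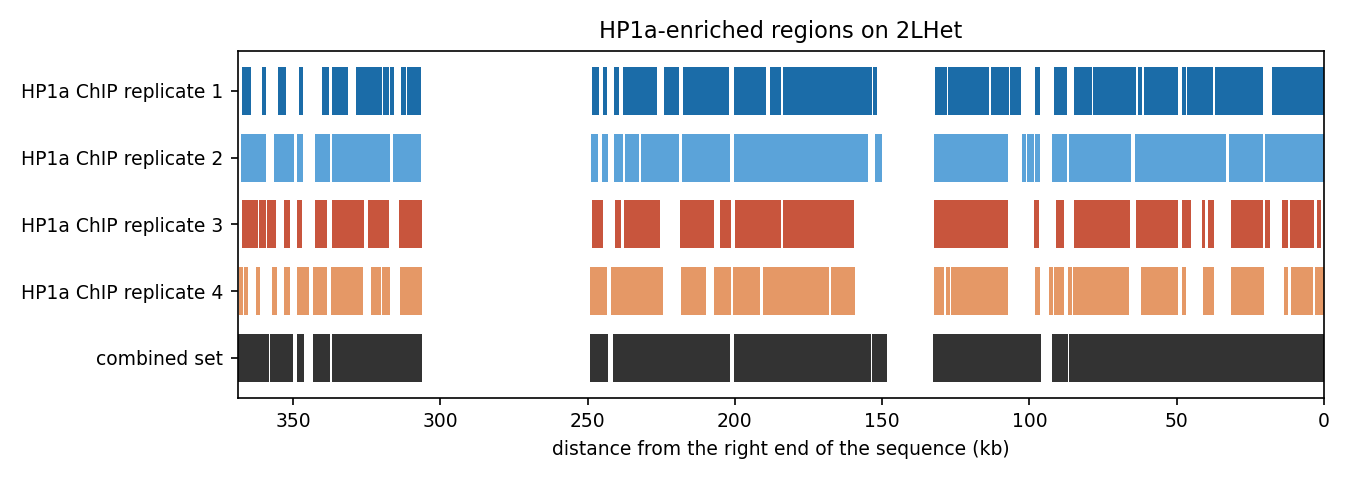
Enriched regions on 2LHet, drawn as blocks to scale against distance from the right end of the scaffold in kb, for the 4 HP1a ChIP replicate lists and the combined set. All 5 lists are empty over the same 57 kb near the left end and over a shorter space near the middle.

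Enrichment on 2LHet was not even. In bins of 50 kb, the one from 150001 to 200000 was covered over 90.6%, 96.1%, 91.8% and 90.0% in replicates 1 to 4, and the one from 50001 to 100000 over 18.3%, 22.6%, 18.3% and 18.8%. The bin from 1 to 50000 averaged 67.3% ± 11.9, the bin from 100001 44.2% ± 5.47 and the bin from 200001 51.9% ± 9.06. The bins from 250001 and 300001 averaged 72.9% ± 6.94 and 79.4% ± 14.3, and the shorter last one 80.5% ± 19.2 (SD, n = 4). Most of the low bin overlaps a stretch of 56.993 kb, from 62660 to 119652, without a region in any of the 5 lists. A second such stretch ran over 15.767 kb from 220363 to 236129. Assembly gaps were not analysed here, and all bases of the scaffold are counted in its covered share.

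How 2LHet compared with the end of 2L depended on how much of the arm was taken. The covered share of 2LHet was 2.02, 1.81, 1.69 and 1.61 times that of the last 2 Mb of 2L, a mean of 1.78 ± 0.179 (SD, n = 4; exceeding 1 in all 4, exact permutation p = 0.13, adjusted p = 0.156). Against the inner 1 Mb of 2L alone it was 1.14, 1.10, 0.909 and 0.863 times, above 1 in replicates 1 and 2 and below 1 in replicates 3 and 4, a mean log2 ratio of -0.01 (exact permutation p = 0.875). The median width on 2LHet was 3744, 5920, 3723 and 3636 bp. It was 1.56 and 2.62 fold that of the 2L window in replicates 1 and 2, and 0.950 and 0.926 fold in replicates 3 and 4 (mean log2 ratio 0.46, exact permutation p = 0.50, adjusted p = 0.50). Without replicate 2 the mean log2 ratio of widths was 0.15.

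**Figure D5:**
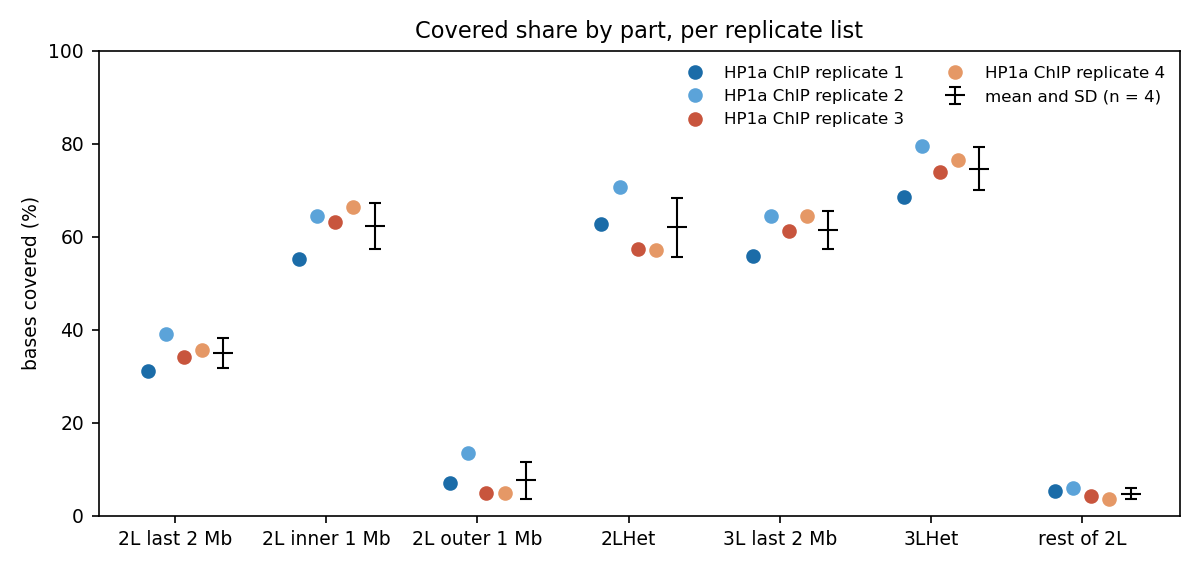
Percentage of bases covered in each HP1a ChIP replicate, as points, with the mean and SD of the 4 replicates beside them, for the last 2 Mb of 2L, its inner and outer 1 Mb, 2LHet, the last 2 Mb of 3L, 3LHet and the rest of 2L. The inner 1 Mb of 2L, between 55.2% and 66.3%, lies at the level of 2LHet and of the 2 Mb of 3L, whereas the outer 1 Mb, between 4.92% and 13.4%, lies near the rest of 2L. The inner 1 Mb of 3L, which is not drawn, was covered more widely, between 68.9% and 82.0%.

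The centromere-side end of 3L and the 3LHet scaffold, the corresponding sequence of another left arm, were covered more widely. The last 2 Mb of 2L had 0.557, 0.604, 0.557 and 0.552 times the covered share of the last 2 Mb of 3L in replicates 1 to 4, on average 0.568 ± 0.0243 (SD, n = 4; under 1 in all 4, exact permutation p = 0.13, adjusted p = 0.156). Most of that difference lay in the outer 1 Mb, where the share on 2L was 0.165 ± 0.0820 times that on 3L. In the inner 1 Mb it was 0.801, 0.794, 0.820 and 0.809 times that on 3L, a mean of 0.806 ± 0.0111. The share of 2LHet was 0.915, 0.890, 0.777 and 0.748 times that of 3LHet, a mean of 0.832 ± 0.0823 (under 1 in all 4, exact permutation p = 0.13, adjusted p = 0.156). The median region width on 3LHet was 4137, 6271, 5794 and 6055 bp in replicates 1 to 4, above that on 2LHet in each.

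Median scores, compared only within a list, were higher in the inner than in the outer part of the 2L window. In the inner 1 Mb the median was 1.25, 1.26, 1.24 and 1.36 in replicates 1 to 4, against 0.995, 0.714, 0.687 and 0.920 in the outer 1 Mb, a difference of 0.259, 0.542, 0.551 and 0.443 (positive in all 4, exact permutation p = 0.13, adjusted p = 0.156). With only the top-scoring 50% of every list kept, the mean difference was 0.104, against 0.449 in the full lists (exact permutation p = 0.375). For the window as a whole, the median minus that of the rest of 2L was 0.0360, -0.150, 0.468 and 0.519 in replicates 1 to 4. The mean was 0.218 (exact permutation p = 0.375, adjusted p = 0.417), and it was 0.118 without replicate 4 and 0.341 without replicate 2.

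How far the replicates shared their regions varied along the sequence. Of the 170 members of the combined set, 70 had an overlapping region in every replicate list, taking 1 shared base as overlap. This was 41.2% (34.1% to 48.7%, a 95% Wilson interval for counting error alone), where the combined set as a whole had 47.1%. On 2LHet it was 83.3% (60.8% to 94.2%), in the inner 1 Mb of 2L 42 of 73 regions or 57.5% (46.1% to 68.2%), and in the outer 1 Mb 13 of 79 or 16.5% (9.88% to 26.1%). Members found in all 4 replicates had a median width of 9564 bp, and the others of 1803 bp. A wide region is overlapped more easily, and the combined set is not independent of the 4 replicates, so these shares are no independent measure of agreement.

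Of the members missing from some lists, part fell into the experiment-number pairs, 13 being found in replicates 3 and 4 only and 14 in replicates 1 and 2 only. A further 26 were found in replicate 2 alone, 25 of them in the outer 1 Mb, and 9 in 3 lists. In the inner 1 Mb 13 regions had the pattern of replicates 3 and 4 only and 1 that of replicates 1 and 2 only. In the outer 1 Mb the counts were 0 and 11. Over the whole combined set 3.12% of regions were found in replicates 3 and 4 only, 9.02% in replicates 1 and 2 only and 5.93% in replicate 2 alone. The share found in 3 lists was not counted over the whole set. The 13 of 73 regions of the inner 1 Mb were above the 3.12%, and the 0 of 79 of the outer 1 Mb below it. For replicates 1 and 2 only, 1 of 73 inner regions was below the 9.02% and 11 of 79 outer regions were above it. Of these 11, 7 lay in the bins from 21411545 to 21611544, left out above after their values were seen. So did 23 of the 25 outer regions found in replicate 2 alone. No test was made of how these patterns split between the inner and outer 1 Mb. Neighbouring regions are not replicates, so the counts cannot set either part apart from the whole combined set. The pairs cannot be told apart from other differences between those experiments.

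Of the 152 combined-set regions of the 2L window, 24 overlapped no replicate list, 15.8% of them, where the combined set as a whole had 13.0%, and on 2LHet there were 0. The highest-scoring of the 24, at 1.04, spans 21347618 to 21349087 and is 1470 bp wide. The next 2 span 22241427 to 22242427 with a score of 0.762 and 21693553 to 21694734 with 0.724, and are 1001 and 1182 bp wide. Conversely, between 0 and 3 regions of the window per replicate lay outside the combined set, and none of those on 2LHet did.

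Measured in bases, the Jaccard index, the bases covered in both of 2 lists divided by those covered in either, averaged 0.752 over the 6 replicate pairs on 2LHet and 0.706 in the 2L window. In the inner 1 Mb it was 0.752 ± 0.0753 and in the outer 1 Mb 0.427 ± 0.114 (SD over 6 pairs). In the 2L window the index was 0.739 between replicates 1 and 2 and 0.843 between replicates 3 and 4, above the 0.643 to 0.690 of the 4 pairs across them. In the outer 1 Mb the index was 0.427 between replicates 1 and 2, within the 0.296 to 0.464 of the pairs across, and 0.612 between replicates 3 and 4, above them. Widely covered sequence overlaps more by its extent alone, so indices of dense and sparse parts are not on one footing. The rest of 2L averaged 0.592 ± 0.106 over the 6 pairs, above the outer 1 Mb. Its mean covered share, 4.75% ± 1.09, was below the 7.59% ± 4.03 of the outer 1 Mb (SD, n = 4). What sets these 2 sparse parts apart was not tested.

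The choice of the last 2 Mb set the outer edge in sparse sequence. The combined-set region nearest inside it, from 21051309 to 21052543, scored 0.274 and had its midpoint 40.381 kb from the edge. The nearest outside it, 5459 bp from 20976322 to 20981780, scored 1.27 and lay 32.494 kb from the edge.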

How the data were processed

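HP1a ChIP-seq regions from 4 ChIP samples were analysed; files of the 4 inputs were not used here. The authors deposited a list of enriched regions for each ChIP sample and another for the whole replicate set, called the combined set. The value per region is a score deposited without a unit, per the file headers. Bowtie 0.12.7 is named in the submitters' processing notes and FlyBase release 5 in the file headers; no source used here gives the caller, its threshold and filters, or the making of the combined set. Depth is unknown, and absence from a list may mean a value just below the caller's threshold.

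Regions past a sequence end were clipped, at most 1 member per list. Covered shares used bases clipped at window edges and full sequence lengths, gaps included. Ratios were formed within each replicate and tested as log2 values by exact sign-flip permutation with Benjamini-Hochberg adjustment over 10 tests. Overlap needed 1 bp. Regions named were, in the combined set, the 10 highest scores found in all 4 replicates, the 10 widest and the 3 highest found in none on 2L, the 5 highest and 5 widest on 2LHet, and the 3 highest and 3 lowest bins. Alternatives were a higher score threshold, merging, another window, overlap rule or summary, and left-out replicates. Members and comparisons were chosen with earlier results of these data known. Python 3.11.15, NumPy 2.4.6, SciPy 1.17.1 and Matplotlib 3.10.9 were used; overlap code was tested on simulated lists.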

Additional observations from a re-analysis of the deposited data

Results flagged for a closer look

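Of 98 values examined, 10 had 1 replicate standing apart from the other 3 by Dixon's test at its 95% critical value, where chance gives about 1 in 20, here 4.9, and several of the values overlap. The widest region of the 2L window measured 66242 bp in replicate 4 and 27528 to 31579 bp in the others, which sets the same value for the inner 1 Mb and for the window with 2LHet. The median width on 2LHet was 5920 bp in replicate 2 and 3636 to 3744 bp in the others. The median score of the inner 1 Mb was 1.36 in replicate 4 and 1.24 to 1.26 in the others. Replicate 2 covered 54.2% of the 2L bin from 21511545, where the others covered 18.3% to 23.2%, and 22.6% of the 2LHet bin from 50001, where the others covered 18.3% to 18.8%. The log2 ratio of the 2L window to the 3L window was -0.73 in replicate 2 and -0.86 to -0.84 in the others. Replicate 1 covered 75.1% of the region from 22748377 to 22774096, where the others covered 94.7% to 98.5%, and 73.9% of the region from 22711766 to 22723059, where the others covered 97.2% to 100%. No cause was tested for these values.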

How the results depend on the processing

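Of 96 alternatives of the tested differences, 91 kept the direction; none could pass the threshold with so few replicates, so the p-values say nothing about stability. With a window of 1 Mb the mean log2 ratio of covered shares of 2LHet to the 2L window was -0.0080, against 0.83, and that of median widths -0.070, against 0.46; the smaller window leaves out the sparse outer 1 Mb. With it the log2 ratio of the 2L window to the rest of 2L was 3.70, against 2.90, and that to the 3L window -0.31, against -0.82. With only the top-scoring 50% of every list kept, the log2 ratio of the 2L window to the rest of 2L was 3.90 for shares and 1.46, against 0.56, for widths, that of inner to outer 1 Mb 4.13, against 3.17, and the score difference of inner from outer 1 Mb 0.104, against 0.449. The width ratio of 2LHet to the 2L window was also -0.22 in the higher-scoring 50% of each list and -0.092 in replicates 3 and 4 only, and the score difference of the window from the rest of 2L was -0.0571 in replicates 1 and 2 only, against 0.218; the cause was not tested. The share of combined-set regions found in all 4 replicates was 17.1% in the 2L window, 33.3% on 2LHet and 18.8% together with reciprocal overlap of at least 50%, and 92%, 100% and 93.5% in the higher-scoring 50% of the combined set. With the higher-scoring 50% of each replicate list it was 18.4%, 50% and 21.8%, and in the 2L window without the 2 bins from 21411545, left out after seeing the data, 49.5%. The 47.1% of the whole combined set holds for overlap of 1 bp in the full lists. Its shares under the other overlap rule and in the higher-scoring parts are not given here. Those values of the members thus cannot be set against all regions. The mean Jaccard index over the pairs of replicates 1 with 2 and 3 with 4 was 0.791 in the 2L window and 0.814 on 2LHet. Leaving out each replicate kept every direction, with the log2 ratio of the 2L window to the rest of 2L between 2.75 and 3.01 and that of inner to outer 1 Mb between 2.97 and 3.47. No paired analysis was possible because no input values were used here, so that ChIP samples were not set against the inputs that share their numbers; sequence parts were compared within each replicate. Shares of bases without assembly gaps were not run, as no genome of release 5 was used here.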

Other observations

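Within the combined set, the 41 weakly scored regions between 21408938 and 21542097 recurred at a fairly regular spacing. The pattern was noticed in these data, and replicate 2 lacked the shorter of the shifts given here. Across the bases of the stretch, the covered or uncovered state correlated with itself at a shift of 5.02 kb (r = 0.311) and of 10.06 kb (r = 0.389), and was lowest in between at 6.21 kb (r = -0.168). In replicate 2 the correlation was -0.0334 at 4.98 kb and 0.209 at 9.98 kb, and was lowest in between at 8.42 kb (r = -0.157). These are descriptions over neighbouring bases of 1 list, with no test. As background, the tandemly repeated histone genes of Drosophila melanogaster lie near the base of 2L; whether they coincide with this stretch was not tested.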
